A study of Mus musculus with 2 samples.

Results

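The interferon-induced transmembrane genes Ifitm1, Ifitm2, Ifitm3 and Ifitm6 were followed through single cells of healing mouse skull bone. These 4 genes were taken from the 32285 genes counted because Ifitm1 had been seen at a higher level in neutrophils of treated mice, so the level of Ifitm1 in those cells is a description and supports nothing else. Of the 3 other genes of the family in the table, Ifitm5, Ifitm7 and Ifitm10 were kept only for comparison.

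The study asked how agonism of TrkA, the receptor of nerve growth factor, changes the cells that repair a calvarial bone defect. Male C57BL/6 mice (C57BL/6J in the study's methods) aged 2 months had a circular frontal bone defect of 1.8 mm. They received daily intraperitoneal injections for 1 week, beginning 24 h ahead of the injury, of GA (gambogic amide, a partial agonist of TrkA) at 1.2 mg/kg in 10% DMSO, or of 100 µL of 10% DMSO alone as control. On day 7 the bone around the defect, in pieces with an edge of about 3 mm, was digested, red cells were lysed, and the cells of 5 mice were pooled into 1 droplet library for each group. With 1 library per group there were no replicates, so no test was possible, and the differences between mice and between library preparations cannot be told apart from the treatment. All intervals are 95% intervals and cover counting error only. The vehicle was given to both groups, no uninjured mice were analysed here, and a digest of bone with its marrow held dividing precursors as well as mature cells.

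IFITM proteins are short membrane proteins. Ifitm1, Ifitm2 and Ifitm3 are classical interferon-stimulated genes whose products hinder the fusion of enveloped viruses with host membranes, IFITM3 mainly in endosomes and IFITM1 also at the cell surface. Type I and type II interferons act through cell-surface receptors, JAK kinases and STAT and IRF factors, which bind an interferon-stimulated response element (ISRE) or a gamma-activated site (GAS) near target genes. Neutrophils ripen in the marrow from dividing precursors through granule-filled immature cells to mature cells, and then enter blood and wounds.

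The 4 genes lie close together on chromosome 7 (GENCODE annotation of GRCm38, the mm10 build of the files). Ifitm2 (ENSMUSG00000060591) occupies chr7:140954837-140955987 on the minus strand, Ifitm1 (ENSMUSG00000025491) chr7:140967221-140969825 on the plus strand, Ifitm3 (ENSMUSG00000025492) chr7:141009586-141010770 on the minus strand, and Ifitm6 (ENSMUSG00000059108) chr7:141015699-141017924 on the minus strand. From Ifitm5 to Ifitm6 the cluster spans 68967 bp. Ifitm2 overlaps the gene model Gm45717, and 46.0% of the 60-base windows of its transcript also occur in another gene, including Ifitm3 and pseudogenes. The same share was 2.49% for Ifitm1, 5.49% for Ifitm3 and 0% for Ifitm6. Counts of Ifitm2 are therefore uncertain, since reads that match several genes may have been lost or split.

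The sequence upstream of each gene is shown because the members are interferon-responsive as a family yet their start regions do not hold the same motifs. Each stretch begins 250 bases before the RefSeq start and stops short of it, before the first base that GENCODE places in an exon of the gene. It is written 5′ to 3′ on the strand of the gene, and comes from RefSeq on GRCm38.p6. Capitals mark an ISRE-like motif, the letters GAAA, any 2 bases and GAAA again, searched on both strands. The stretches of Ifitm1 (chr7:140967826-140968027, plus strand) and Ifitm6 (chr7:141016909-141017142, minus strand) lie inside the span of a longer GENCODE model, outside its exons. Those of Ifitm2 (chr7:140955988-140956211) and Ifitm3 (chr7:141010771-141010994) are on the minus strand.
Ifitm1: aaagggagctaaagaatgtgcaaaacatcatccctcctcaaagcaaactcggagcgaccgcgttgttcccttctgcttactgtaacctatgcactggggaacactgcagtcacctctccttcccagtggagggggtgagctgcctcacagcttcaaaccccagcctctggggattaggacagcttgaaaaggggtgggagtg
Ifitm2: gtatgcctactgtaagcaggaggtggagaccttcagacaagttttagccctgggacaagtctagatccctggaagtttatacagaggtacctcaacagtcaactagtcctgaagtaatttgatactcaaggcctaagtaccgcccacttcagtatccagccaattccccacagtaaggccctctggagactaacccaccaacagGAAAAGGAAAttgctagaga
Ifitm3: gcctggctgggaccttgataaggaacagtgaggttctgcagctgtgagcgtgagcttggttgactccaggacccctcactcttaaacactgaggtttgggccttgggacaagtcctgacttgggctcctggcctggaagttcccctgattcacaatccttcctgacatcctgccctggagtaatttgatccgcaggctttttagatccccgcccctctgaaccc
Ifitm6: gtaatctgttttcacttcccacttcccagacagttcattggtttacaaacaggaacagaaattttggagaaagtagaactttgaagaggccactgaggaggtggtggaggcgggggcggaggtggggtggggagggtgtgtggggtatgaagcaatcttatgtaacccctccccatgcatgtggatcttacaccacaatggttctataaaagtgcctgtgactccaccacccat

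Motifs were searched on both strands from 250 bases before to 50 bases after the RefSeq start, of which the first transcribed base is 1. An ISRE-like motif was present in 1131 of 32851 such windows (3.44%). Counted by gene and not by window, it was present in 18 of 32 listed interferon target genes with a window (56.2%). Ifitm2 held GAAAAGGAAA with its first base at -46. Ifitm3 held a pair of them just inside the transcribed part, at 3 and 20 (chr7:141010716-141010742, minus strand), in which capitals again mark the matches.
Ifitm3 pair: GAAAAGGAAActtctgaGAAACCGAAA

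A GAS-like motif, TTCNNNGAA, which reads the same on both strands, was present in 2726 of the windows (8.30%) and in 7 of 32 interferon targets (21.9%). Ifitm3 held TTCTGAGAA at 14, beginning after the first match of its ISRE-like pair and overlapping only the second. Ifitm6 held TTCCTTGAA at -10, past the end of the stretch printed above. Neither motif was found in the Ifitm1 window, which says only that these letters are absent there. The starts of the longer GENCODE models of Ifitm1 and Ifitm6 lie outside the windows and were not searched.

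The GA library held 9322 barcodes and the control library 8718, of which 8380 and 7552 were kept as cells, with medians of 10968 and 16306 unique molecular identifiers (UMIs, counted transcripts). In all, 23 barcodes occurred in both libraries. Cells were clustered without the Ifitm genes, and clusters were named from marker genes. Levels are given as counts per 1000000 UMIs of the cells summed (CPM). Since transcripts were counted at one end, levels are compared between cells and libraries and not between genes. Neutrophil-like cells made up 52.6% of GA cells (4404) and 27.6% of control cells (2084). S100a8 and S100a9, the calprotectin genes that mark neutrophils, together stood at 274137 CPM in GA and 242972 CPM in control in these cells, and all 7 genes of a list of neutrophil transcripts were detected. These 7 genes were among the markers that named the class and were detected in B-like cells too, so nothing is read from their detection.

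In neutrophil-like cells Ifitm1 was at 1095 CPM in GA (46665 UMIs) and 179 CPM in control (2791 UMIs), a log2 ratio of 2.62 (2.56 to 2.67). This is the value for which the family was chosen. Ifitm2 was at 879 CPM in GA and 531 CPM in control, a log2 ratio of 0.73 (0.69 to 0.76). The other 2 members stood higher in GA as well. Ifitm3 was at 956 and 605 CPM, a log2 ratio of 0.66 (0.63 to 0.69), and Ifitm6, a member found mainly in neutrophils in these data, at 1807 and 1181 CPM, a log2 ratio of 0.61 (0.59 to 0.64). For scale, the median log2 ratio of the 8248 genes with at least 200 UMIs in neutrophil-like cells was -0.13, that of S100a8 was 0.20 and that of S100a9 0.15. At a difference of at least 2-fold, 1 of the 4 members was higher in GA and 0 were lower, while 0.218% of all genes were that much higher and 0.776% that much lower. The members were chosen from this contrast, so nothing is read from that count.

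The genes next to the cluster gave different values. In neutrophil-like cells Psmd13, a proteasome subunit gene, had a log2 ratio of 0.06 (-0.05 to 0.17), and Pgghg one of -0.19 (-0.40 to 0.02), both intervals including 0. The nearest genes on the other side (B4galnt4, Pkp3 and Sigirr) had at most 23 UMIs in a library. Ifitm10 stood at 5.56 CPM in GA and 5.12 CPM in control, a log2 ratio of 0.12 (-0.25 to 0.50). Ifitm7 had no UMI in neutrophil-like cells. Ifitm5, a gene of bone-forming cells, was found in osteoblast-like cells, at 469 CPM in GA and 499 CPM in control.

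Neutrophil-like cells were then clustered again without the Ifitm genes and named by stage from markers. The GA and control libraries gave 327 and 176 dividing precursors, 921 and 404 immature, 1956 and 897 mature, 647 and 346 chemokine, and 192 and 126 interferon-signature neutrophils. A cluster led by Gm16083, Gpr27 and Adgrl3 (361 and 135 cells) stayed unnamed. The interferon-signature stage was not recovered under every clustering, and its cells also held the highest summed level of the chemokine markers.

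Ifitm1 was a transcript of late stages in both libraries. In dividing precursors it was at 5.48 CPM in GA and 5.96 CPM in control, a log2 ratio of -0.12 (-0.82 to 0.61). The interval included 0, and over the alternative settings this ratio ran from -1.47 with background subtracted to 2.31 at Leiden resolution 2, so no direction is read from it. In immature neutrophils Ifitm1 was at 37.6 CPM in GA and 5.73 CPM in control, a log2 ratio of 2.71 (2.12 to 3.37). This came from 466 UMIs in GA and 24 in control, and 10 of the 921 GA cells held 37.6% of the GA UMIs. In mature neutrophils it reached 2301 CPM in GA and 302 CPM in control, a log2 ratio of 2.93 (2.85 to 3.01). In chemokine neutrophils, which carry Ccl3, Ccl4 and Cxcl2, it was at 3801 and 538 CPM, a log2 ratio of 2.82 (2.71 to 2.93). The control levels of the first 2 stages were no higher than that of control B-like cells (6.19 CPM). That of dividing precursors came from 26 UMIs, 80.8% of them in 2 of 176 cells, so these 2 stages are not ordered. The later control stages stood higher, and from the immature stage on the GA value was the higher of the pair. The interferon-signature stage had the highest Ifitm1 level of both libraries, 4633 CPM in GA and 1469 CPM in control, and a log2 ratio of 1.66 (1.54 to 1.77). Its S100a8 and S100a9 levels also differed, at 134151 CPM together in GA and 48254 CPM in control, and their part in that ratio was not tested.

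Ifitm6 ran the other way along the stages. It was at 979.5 CPM in GA and 743 CPM in control in dividing precursors, and peaked in immature neutrophils at 3377 and 2539 CPM, a log2 ratio of 0.41 (0.38 to 0.44). In mature neutrophils it had dropped to 1030.3 CPM in GA and 573 CPM in control, a log2 ratio of 0.85 (0.78 to 0.91). It was lowest in chemokine neutrophils, at 263 and 129 CPM, a log2 ratio of 1.02 (0.78 to 1.27), which was 0.44 at Leiden resolution 2. Thus the GA level of Ifitm6 lay above the control level in each stage. The highest and the lowest stage were shared by the libraries. Mature neutrophils lay above dividing precursors in GA and below them in control.

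Ifitm2 climbed from 411 CPM in GA and 254 CPM in control in dividing precursors to 2604 and 2409 CPM in interferon-signature cells. Its log2 ratio was 0.69 (0.60 to 0.79) in dividing precursors, 1.00 (0.94 to 1.06) in mature neutrophils and 0.11 (0.01 to 0.21) in the interferon-signature stage. Ifitm3 varied less between stages, from 577 CPM in GA and 283 CPM in control in dividing precursors, a log2 ratio of 1.03 (0.94 to 1.12), to 1098 and 712 CPM in mature neutrophils, a log2 ratio of 0.63 (0.57 to 0.68). In the interferon-signature stage Ifitm3 was at 1695 and 1481 CPM, a log2 ratio of 0.19 (0.07 to 0.32). The stage with the highest interferon markers was the stage where Ifitm2 and Ifitm3 lay closest together in the 2 libraries, but for Ifitm3 the ratio there was 0.95 when cells were clustered on log counts in place of Pearson residuals.

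**Figure D1:**
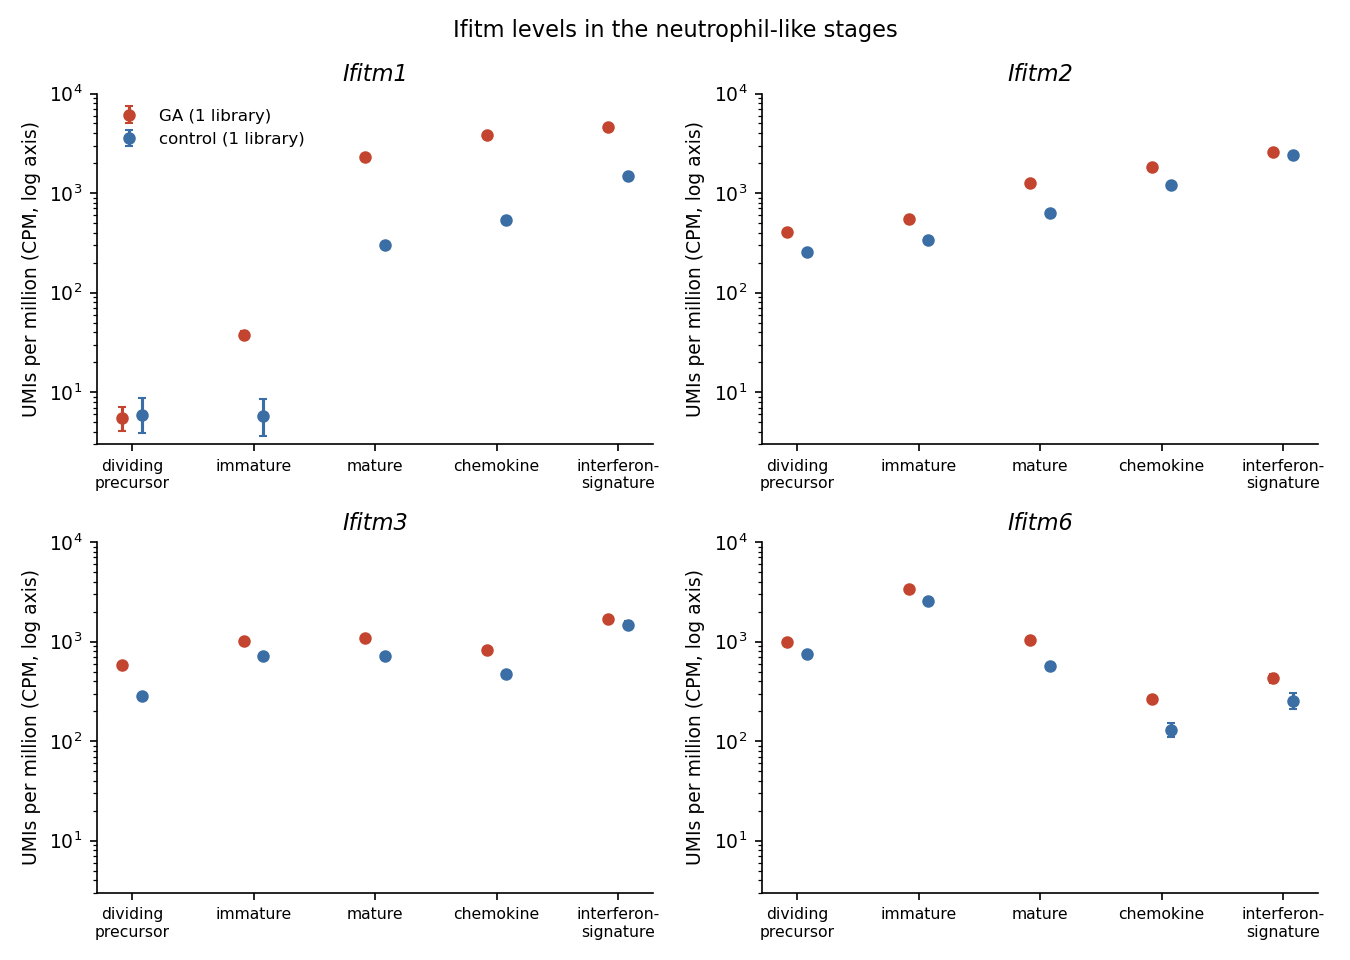
Level of each Ifitm member in 5 neutrophil stages, in CPM on a log axis, with 1 point per library (red GA, blue control) and bars for exact Poisson intervals, which are smaller than the point where not visible. Ifitm1 climbed from about 5 CPM in dividing precursors to 4633 CPM (GA) and 1469 CPM (control), while Ifitm6 peaked in immature neutrophils at 3377 and 2539 CPM.

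Of 19 pairs of a member and a stage with at least 200 UMIs, 7 were at least 2-fold higher in GA and 0 lower. Among all genes the share that much higher was 0.147% in dividing precursors, 0.222% in immature, 0.601% in mature, 0.744% in chemokine and 2.66% in interferon-signature neutrophils. The share that much lower was 0.165%, 0.322%, 0.621%, 0.548% and 3.00% in the same order. As the members were chosen on the same cells, nothing is read from this either. At the level of the 15 neutrophil clusters, Ifitm2, Ifitm3 and Ifitm6 were higher in GA in 15 of 15, at least 2-fold in 6, 1 and 4 of them. Ifitm1 was higher in 13 of the 14 clusters in which a ratio could be formed, by at least 2-fold in all 13. The exception was a cluster of dividing precursors led by the granule protease genes Elane and Prtn3 and by Mpo (myeloperoxidase), at 5.75 CPM in GA (15 UMIs) and 22.2 CPM in control (20 UMIs). In an immature cluster led by Gm33148, Ifitm1 had 26 UMIs in GA and 0 in control. All these clusters come from the same 2 libraries and are no repeats. No limit of 200 UMIs was set for them. The matching shares of all genes were not counted, so nothing is read from the counts of clusters.

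To set cells of like ripeness side by side, 6434 neutrophil-like cells were also ordered by a maturity score from the immature and mature marker genes and divided into 5 ranges of equal cell number. A further 54 cells were too shallow to score, and 503 (7.82%) lay within 0.05 of a limit between ranges, so the ranges are not cell types. In the least mature range Ifitm1 was at 13.2 CPM in GA and 2.57 CPM in control, a log2 ratio of 2.36 (1.63 to 3.19). The ratio was widest in the middle range, at 1696 and 148 CPM (3.52, 3.35 to 3.69), and in the most mature range the levels were 4128 and 712 CPM (2.54, 2.46 to 2.61). From the first to the last range Ifitm6 went from 2377 to 243 CPM in GA and from 1787 to 141 CPM in control, with log2 ratios between 0.41 and 1.02. Ifitm2 climbed from 475 to 1907 CPM in GA and from 287 to 1299 CPM in control. Ifitm3 stayed between 825 and 1147 CPM in GA and between 514 and 743 CPM in control. In the middle range the granule gene Camp, one of the maturity markers, was at 364 CPM in GA and 1027 CPM in control, so cells of like score still differed, and the part of that difference in the Ifitm ratios was not tested.

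**Figure D2:**
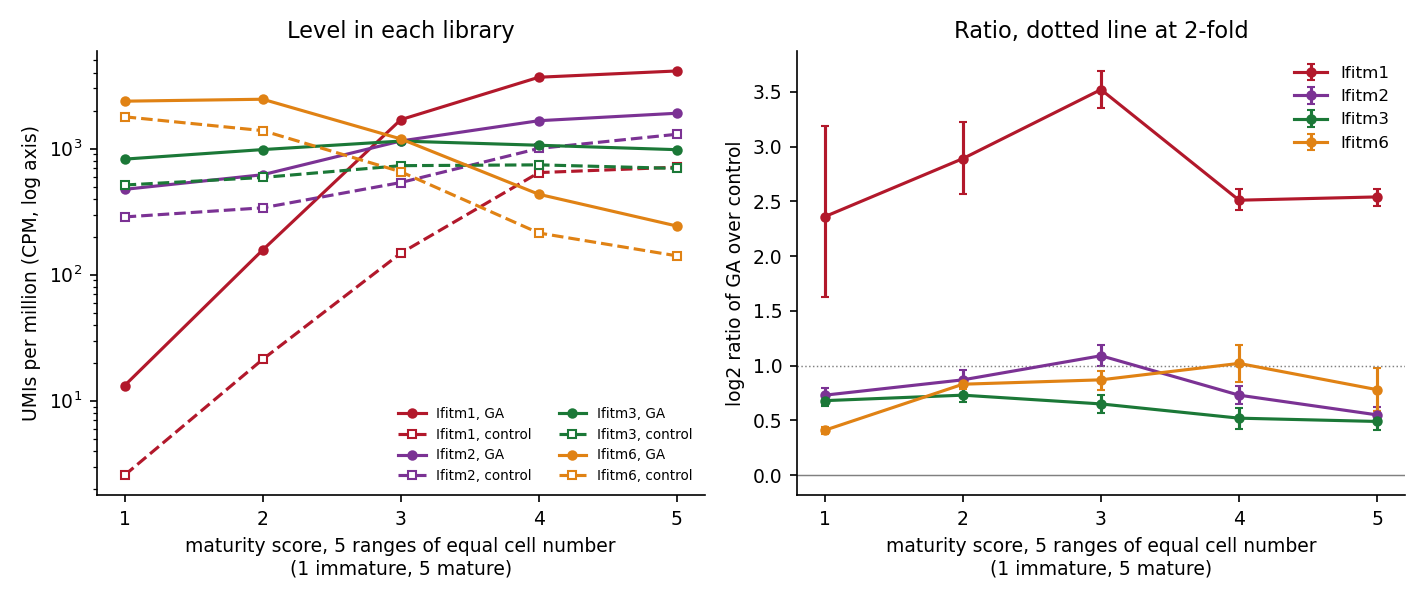
Left, CPM of each member on a log axis in 5 ranges of the maturity score, with filled circles and full lines for GA and open squares and broken lines for control. Right, log2 ratio of GA over control with exact binomial intervals. The Ifitm1 ratio lay between 2.36 and 3.52 and was widest in range 3, while Ifitm6 was lower in range 5 than in range 1 in both libraries.

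Differences in summed levels can come from a few cells or from many. A UMI of Ifitm1 was present in 60.5% of GA neutrophil-like cells (59.0 to 61.9%, median 7059 UMIs per cell) and in 29.7% of control cells (27.7 to 31.7%, median 5092 UMIs per cell). After each cell was thinned to 2000 UMIs, which left out 28 GA and 26 control cells as too shallow, the shares were 48.9% and 22.5%. B-like cells, which should lack most neutrophil transcripts, gave 2.40% and 1.04% (medians 6472 and 5934 UMIs per cell), and erythroid-like cells gave 0 of 62 and 0 of 91, which, at 3 counts, allow a share of cells with a UMI of up to 4.84% and 3.30%. More cells of the GA library thus held Ifitm1, above the share seen in B-like cells.

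In mature neutrophils the thinned share with Ifitm1 was 66.8% in GA and 26.0% in control, and in chemokine neutrophils 88.1% and 39.6%. In immature neutrophils it was 4.99% and 1.24%, beside the B-like shares of 2.40% and 1.04%. The median mature neutrophil held 1423 CPM of Ifitm1 in GA and 0 CPM in control, and the 75th percentile of cells was 4001 and 267 CPM. The 1% of neutrophil-like cells with the most Ifitm1 UMIs held 8.22% of them in GA and 19.4% in control. For Ifitm6 the thinned shares were 98.9% and 97.3% of immature neutrophils, so nearly every immature cell held it in either library, and 63.5% and 46.6% of mature neutrophils. For Ifitm2 they were 81.9% and 57.4% of mature neutrophils, and for Ifitm3 79.7% and 67.6%.

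**Figure D3:**
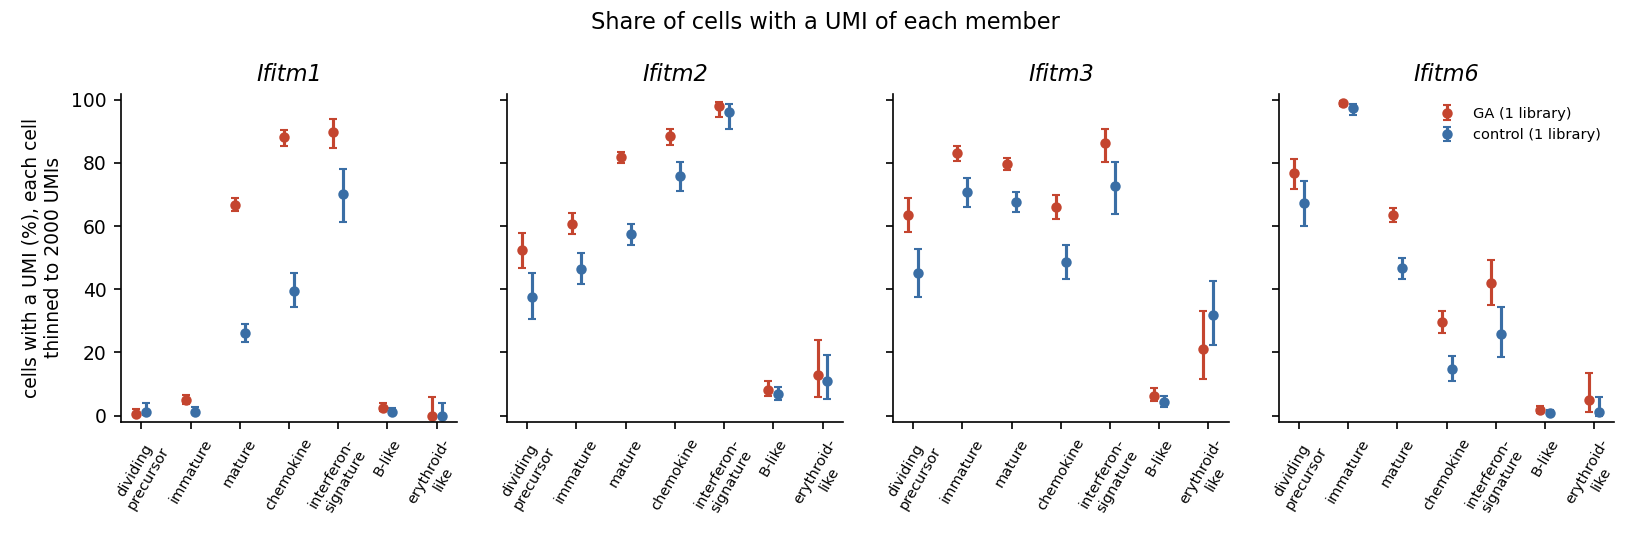
Share of cells with at least 1 UMI of each member, in percent, after thinning each cell to 2000 UMIs, in 5 neutrophil stages and in B-like and erythroid-like cells, with exact Clopper-Pearson intervals (red GA, blue control). For Ifitm1 the 2 libraries stood at 66.8% and 26.0% in mature and at 88.1% and 39.6% in chemokine neutrophils, and under 3% in B-like cells.

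The members found in each cell were also counted. Such counts depend on the share of cells with each member alone. Whether members occurred together more often than those shares give was not tested. Among thinned neutrophil-like cells, 735 of 4376 (16.8%) in GA held all 4 members and 29 (0.663%) held none. In control 62 of 2058 cells (3.01%) held all 4 and 114 (5.54%) held none. All 4 were found in 26.2% of GA and 3.61% of control mature neutrophils, and in 30.9% and 16.1% of interferon-signature neutrophils. Not 1 of the 327 GA or 175 control dividing precursors held all 4.

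The cells that supplied each transcript differed between libraries. Of all Ifitm1 UMIs in kept cells, neutrophil-like cells gave 82.6% in GA and 19.7% in control. In control the main source was dendritic-like cells, with 51.1%, followed by mesenchymal-like cells with 12.5% and basophil- or mast-like cells with 6.32%. Ifitm6 came from neutrophil-like cells in both libraries (92.6% in GA, 85.4% in control), with 4.88% and 10.3% from monocyte-like cells. Ifitm2 came mostly from neutrophil-like (32.7%) and mesenchymal-like cells (21.6%) in GA, and from mesenchymal-like cells (42.1%) in control. For Ifitm3 the mesenchymal-like share was 29.4% in GA and 45.0% in control.

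Over all kept cells Ifitm1 was at 352 CPM in GA and 77.1 CPM in control, a log2 ratio of 2.19, and Ifitm6 at 518 and 118 CPM, a log2 ratio of 2.14. These 2 of 4 members were at least 2-fold higher and 0 were that much lower, beside 3.13% and 7.02% of all genes. With the classes given the same weight in both libraries, the ratios were 1.51 for Ifitm1 and 0.55 for Ifitm6. Ifitm2 was at 713 and 617 CPM (0.21) and Ifitm3 at 1073 and 887 CPM (0.27).

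Among 11 classes with at least 50 cells in each library, Ifitm1 was highest in neutrophil-like (1095 CPM), dendritic-like (483 CPM) and monocyte-like cells (130.1 CPM) in GA. In control the order was dendritic-like (1174 CPM), neutrophil-like (179 CPM), monocyte-like (52.5 CPM) and mesenchymal-like cells (25.2 CPM), each with intervals apart from the next. Below these, neighbouring classes overlapped. Ifitm6 was highest in neutrophil-like and then monocyte-like cells in both. Ifitm2 was highest in dendritic-like cells in both, at 1194 and 1392 CPM. Ifitm3 was highest in dendritic-like cells in GA (1794 CPM) and in monocyte-like cells in control (2181 CPM). T- or NK-like cells and B-like cells stood below 100 CPM for each member.

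**Figure D4:**
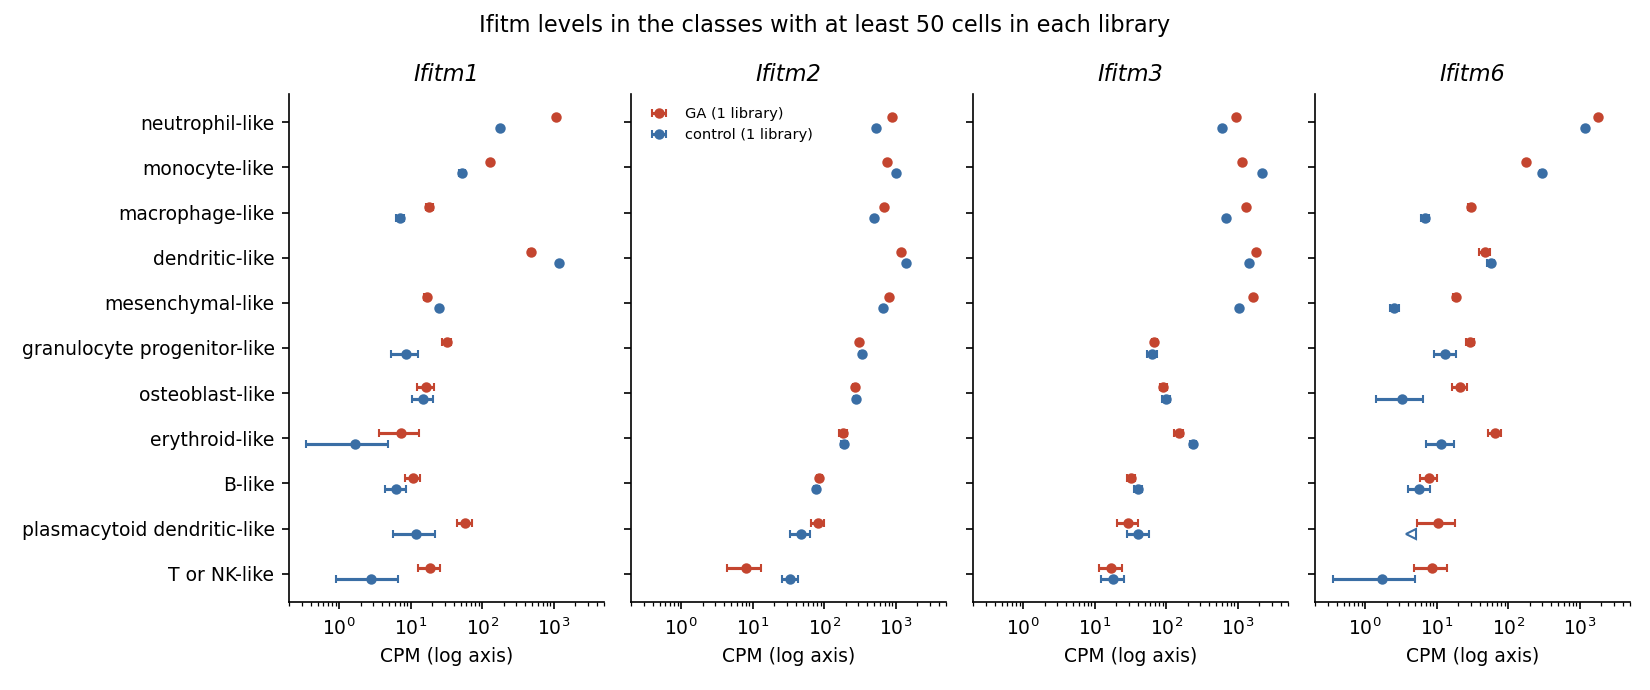
CPM of each member on a log axis in the 11 cell classes with at least 50 cells in each library, with exact Poisson intervals (red GA, blue control). An open triangle marks the upper limit of a class with 0 UMIs. Ifitm1 was lower in GA in dendritic-like cells (483 against 1174 CPM) and higher in neutrophil-like cells (1095 against 179 CPM).

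In dendritic-like cells (158 in GA, 325 in control) Ifitm1 was at 483 CPM in GA and 1174 CPM in control, a log2 ratio of -1.28 (-1.36 to -1.20), and so lower in GA, the opposite of neutrophil-like cells. This was 1 of 4 members at least 2-fold lower, beside 0.911% of all genes in that class, and over the alternative settings the ratio ran from -1.43 to -0.91, so it did not always reach 2-fold. After thinning, Ifitm1 was found in 20.9% of GA and 34.5% of control dendritic-like cells, and the 90th percentile of cells was 1742 and 4555 CPM, so Ifitm1 was carried by part of the class. Ifitm3 was at 1794 and 1444 CPM in these cells, a log2 ratio of 0.31 (0.26 to 0.36). Ifitm2 was at 1194 and 1392 CPM (-0.22, -0.28 to -0.17), and Ifitm6 at 46.7 and 56.7 CPM (-0.28, -0.57 to 0.00). S100a8 and S100a9 together were at 2310.3 CPM in GA and 506 CPM in control in dendritic-like cells, so the neutrophil transcripts there moved the other way from Ifitm1.

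In monocyte-like cells (673 and 424) Ifitm3 was at 1149.7 CPM in GA and 2181 CPM in control, a log2 ratio of -0.92 (-0.95 to -0.90). Ifitm6 was at 178 and 292 CPM (-0.72, -0.79 to -0.64), and Ifitm2 at 751 and 1014 CPM (-0.43, -0.47 to -0.39). Thus 3 members stood lower in GA monocytes while each was higher in GA neutrophils. Most GA monocytes lay in a cluster led by Tctex1d1 (363 cells) and most control monocytes in a cluster led by Adgre4 (280 cells). The Tctex1d1-led cluster had a mean log2 marker fold of 1.64 as monocyte and of 1.57 as granulocyte progenitor. Within these clusters the Ifitm3 ratio was -0.84 and -0.34, and the Ifitm6 ratio -0.62 and -0.07. Over the alternative settings the Ifitm3 ratio of the class ran from -0.93 to -0.44, the Ifitm6 ratio from -0.75 to -0.20 and the Ifitm1 ratio from 0.63 to 1.54. Ifitm1 was at 130.1 and 52.5 CPM, a log2 ratio of 1.31 (1.16 to 1.46), the 1 of 4 members at least 2-fold higher, beside 1.09% of all genes. S100a8 and S100a9 were at 2877 CPM in GA and 507 CPM in control in these cells, and with background subtracted the Ifitm1 ratio was 1.30. The background was set by B-like cells, at 818 and 335 CPM of S100a8 and S100a9, less than in monocyte-like cells of either library.

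In macrophage-like cells (755 and 1397) Ifitm3 was at 1307 CPM in GA and 677 CPM in control, a log2 ratio of 0.95 (0.92 to 0.97). The value was alike in both macrophage clusters, 0.92 (0.89 to 0.96) in that led by Arg1, Mmp12 and Ccl24 and 0.98 (0.93 to 1.02) in that led by Fcrls, Gdf15 and Apoe. Ifitm2 was at 693 and 492 CPM (0.49, 0.46 to 0.53). Ifitm1 (18.2 and 7.06 CPM) and Ifitm6 (29.8 and 6.86 CPM) were the 2 of 4 members at least 2-fold higher, beside 1.13% of all genes, with log2 ratios of 1.37 and 2.12. S100a8 and S100a9 stood at 1649.6 CPM in GA macrophages and 200.2 CPM in control, and all 7 neutrophil transcripts of the list were at least 2-fold higher. For each 1000 UMIs of S100a8 and S100a9 there were 18.1 UMIs of Ifitm6 in GA and 34.3 in control, and Ifitm1 stood at 35.3 in control and lower in GA. With background subtracted as estimated from B-like cells, the ratios were 1.30 for Ifitm1 and 2.27 for Ifitm6. B-like cells held 818 CPM of S100a8 and S100a9 in GA and 335 CPM in control. This is less than in GA macrophages and more than in control ones, so these ratios are not read as free of neutrophil transcripts.

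In mesenchymal-like cells (532 and 1219), which include the skeletal progenitors, Ifitm3 was at 1629 CPM in GA and 1039 CPM in control, a log2 ratio of 0.65 (0.63 to 0.66). Ifitm2 was at 796 and 676 CPM (0.23, 0.21 to 0.26). Ifitm1 was at 16.8 and 25.2 CPM, a log2 ratio of -0.58 (-0.72 to -0.44), but its clusters differed. In the cluster led by Eln, Ptgds and Crispld1 (47 and 357 cells) Ifitm1 was at 42.1 and 92.6 CPM (-1.14), while in the 2 others it was higher in GA, with log2 ratios of 2.17 and 1.03. An unnamed cluster led by Mmp3, Clec3b and C4b, which scored as mesenchymal, held Ifitm1 at 26.6 and 3.53 CPM (2.91). Counted with the mesenchymal-like cells, it brought Ifitm1 to 19.7 and 19.8 CPM, a log2 ratio of -0.01 (-0.12 to 0.11). The lower value in GA thus depends on which clusters are counted, and of the named ones only the Eln-led cluster was lower in GA. Ifitm6 was at 18.5 and 2.55 CPM, a log2 ratio of 2.86 (2.62 to 3.11), the 1 of 4 members at least 2-fold higher, beside 1.76% of all genes. Few cells held much of it: 6 of the 532 GA cells held 47.9% of its GA UMIs, and 13 of the 1219 control cells held 43.9% of its control UMIs. For each 1000 UMIs of S100a8 and S100a9 there were 12.2 UMIs of Ifitm6 in either library of mesenchymal-like cells, beside 6.59 (GA) and 4.86 (control) in neutrophil-like, 20.2 and 112 in dendritic-like and 7.77 and 4.30 in osteoblast-like cells. The summed level of the 7 neutrophil transcripts (7 of 7 detected) was 1906 CPM in GA and 280.5 CPM in control. When the background level of each gene, estimated from S100a8 and S100a9 in B-like cells, was subtracted (5.52 CPM of Ifitm6 in GA, 1.81 CPM in control), the Ifitm6 ratio was 4.12. S100a8 and S100a9 stood at 818 CPM in GA and 335 CPM in control in B-like cells, but at 1514 and 210.1 CPM in mesenchymal-like cells. The estimate was thus low for the GA cells and high for the control cells, so nothing is read from 4.12.

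Ifitm1 was at 31.9 and 8.52 CPM in granulocyte progenitor-like cells (162 and 79), a log2 ratio of 1.90 (1.27 to 2.61), and Ifitm6 at 29.3 and 13.2 CPM (1.15, 0.63 to 1.72). These ratios came from 232 and 22 UMIs of Ifitm1 and 213 and 34 of Ifitm6. In control 1 cell held 77.3% of the Ifitm1 UMIs, and 1 cell held 73.5% of the Ifitm6 UMIs. Ifitm1 and Ifitm6 were the 2 of 4 members at least 2-fold higher, beside 0.258% of all genes, and the Ifitm6 ratio turned negative under 2 alternative settings. Basophil- or mast-like cells, with only 33 and 34 cells, were rich in Ifitm1, at 2875 CPM in GA and 2455 CPM in control, a log2 ratio of 0.23 (0.10 to 0.36). Endothelial-like cells (53 and 47) held Ifitm3 at 1956 and 1759 CPM. An unnamed cluster led by the platelet genes Treml1, Ppbp and Gp9 (153 and 76 cells) held Ifitm1 at 507 and 195 CPM, a log2 ratio of 1.38 (1.22 to 1.54). Of the 26 pairs of a member and a class outside the neutrophils that had at least 200 UMIs, 6 were at least 2-fold higher and 1 at least 2-fold lower in GA. None of these was in B-like, erythroid-like or osteoblast-like cells, where 0.114%, 0.499% and 1.15% of all genes were that much higher and 0.0142%, 2.73% and 0.625% that much lower. The share of all genes that much lower was 0.298% in granulocyte progenitor-like, 0.404% in macrophage-like and 1.84% in mesenchymal-like cells.

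The rest of the interferon pathway was then read from a list of 40 interferon target genes, of which 38 were in the table. In neutrophil-like cells 35 had at least 200 UMIs, 13 stood higher in GA, 0 were at least 2-fold higher and 1 at least 2-fold lower (beside 0.218% and 0.776% of all genes). The median log2 ratio of the list was -0.07, beside -0.13 over all genes. The targets highest in GA were Gbp2, a guanylate-binding protein gene (11.1 and 5.56 CPM, 0.99), Trim30a (85.8 and 71.9 CPM, 0.26) and Ifit1 (21.4 and 19.0 CPM, 0.17). The lowest were the chemokine gene Cxcl10 (10.2 and 29.5 CPM, -1.53), Ifi27l2a (239 and 371 CPM, -0.63) and Ifih1, the gene of the RNA sensor MDA5 (14.8 and 21.2 CPM, -0.52).

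Upstream of the targets, 0 of the 5 interferon ligand genes reached 200 UMIs in neutrophil-like cells. The 7 receptor and kinase genes had a median log2 ratio of -0.09, with Ifnar2, a subunit of the type I interferon receptor, at 163 and 162 CPM (0.01) and Ifngr1, of the type II receptor, at 116 and 117 CPM (-0.01). The 7 measured STAT and IRF factors had a median of -0.19, with 0 higher in GA. Of the 8 genes listed for proteins known to bind or modify IFITM proteins, 6 were measured, with 1 higher and a median of -0.17. Cd81, a tetraspanin that associates with IFITM1, was at 63.1 and 72.5 CPM (-0.20). The median log2 ratio over all genes in these cells was -0.13. The share of all genes higher in GA at any fold was not counted, so nothing is read from how many genes of a list stood higher.

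In macrophage-like cells 38 of 38 measured targets stood higher in GA, 18 at least 2-fold (beside 1.13% of all genes), with a median of 0.99 (all genes 0.05). In mesenchymal-like cells 36 of 36 stood higher, 23 at least 2-fold (beside 1.76% of all genes), with a median of 1.27 (all genes -0.01). The Eln-led cluster made up 47 of the 532 GA and 357 of the 1219 control cells of this class. The targets were not read within its clusters, so the part of that unlike mix in the median was not tested. In dendritic-like cells 31 of 32 stood higher, 9 at least 2-fold (beside 0.804% of all genes), with a median of 0.75 (all genes 0.02). Ifitm3 was higher in GA in these 3 classes, at 0.95, 0.65 and 0.31. The other members did not all share that sign. In dendritic-like cells Ifitm1 (-1.28), Ifitm2 (-0.22) and Ifitm6 (-0.28) were lower in GA, but the Ifitm6 ratio ran from -0.50 to 0.19 over the alternative settings. In mesenchymal-like cells Ifitm1 was lower (-0.58), and Ifitm2 (0.23) and Ifitm6 (2.86) were higher. With the unnamed Mmp3-led cluster counted in, that Ifitm1 ratio was -0.01, so its sign depends on which clusters are counted. In macrophage-like cells Ifitm1 (1.37), Ifitm2 (0.49) and Ifitm6 (2.12) were higher. In monocyte-like cells 1 of 36 stood higher and 24 were at least 2-fold lower (beside 2.12% of all genes), with a median of -1.26 (all genes 0.00). Ifitm3 was lower there, at -0.92, as were Ifitm2 (-0.43) and Ifitm6 (-0.72), while Ifitm1 was higher (1.31). That class pooled the Tctex1d1-led cluster (363 GA and 144 control cells) and the Adgre4-led cluster (310 and 280 cells). The targets were not read within each cluster, so the part of this unlike mix in their median was not tested. In classes with fewer measured targets the signs of Ifitm3 and of the list did not always match. They differed in granulocyte progenitor-like cells (list median -0.07 over 6 targets, Ifitm3 0.12) and T- or NK-like cells (0.02 over 11, Ifitm3 -0.10 from 32 UMIs in each library). They matched in B-like (-0.11 over 14, Ifitm3 -0.33), erythroid-like (-0.41 over 3, -0.65) and plasmacytoid dendritic-like cells (-0.16 over 5, -0.48 from 34 UMIs in each library). Over the alternative settings the Ifitm3 ratio changed sign in each of these classes except the plasmacytoid dendritic-like cells. Ifit1, for example, had a log2 ratio of 1.88 in macrophage-like, 2.02 in mesenchymal-like and 1.27 in dendritic-like cells and of -1.03 in monocyte-like cells. In neutrophil-like cells Ifitm3 stood at 0.66 with the targets at -0.07. These comparisons share the same 2 libraries, and no test of a relation between them was made. The share of all genes higher at any fold was not counted in any class, so only the medians and the 2-fold counts are set beside all genes.

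**Figure D5:**
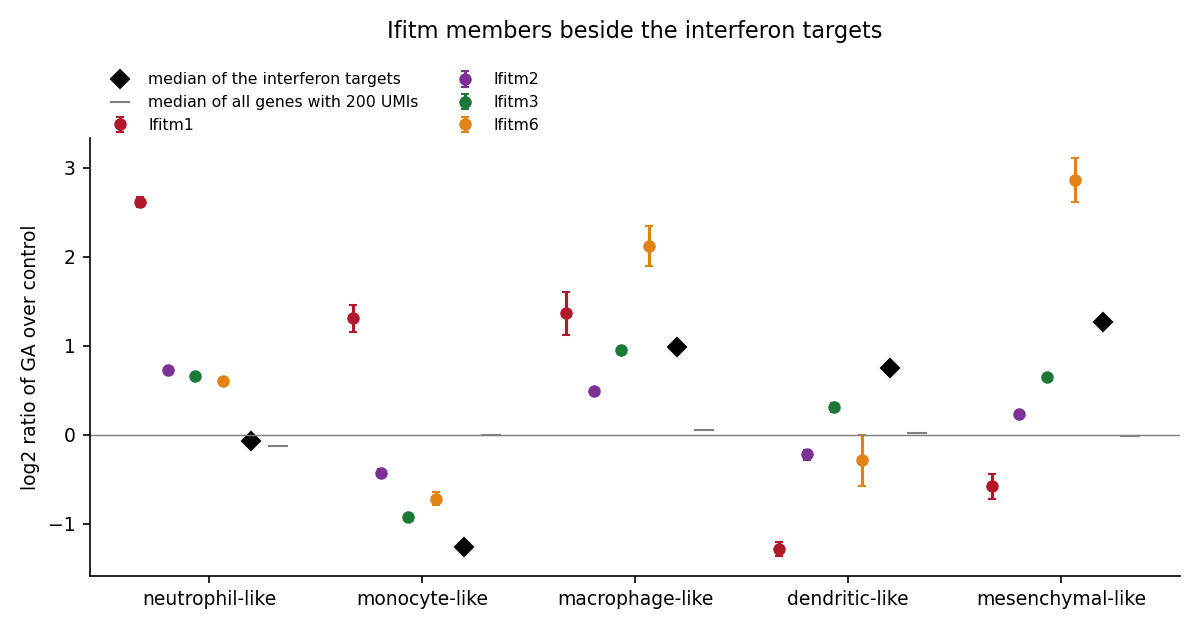
Log2 ratio of GA over control of the 4 members in 5 cell classes (coloured points with exact binomial intervals), beside the median of the interferon target list (black diamonds) and the median of all genes with at least 200 UMIs (grey bars). The list median was -0.07 in neutrophil-like, -1.26 in monocyte-like, 0.99 in macrophage-like, 0.75 in dendritic-like and 1.27 in mesenchymal-like cells.

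The genes most like each member over the 11 classes were found from Pearson's r of log2(CPM + 1), averaged over both libraries, as a description over points that share the same libraries. Nearest to Ifitm1 were Il1r2, the decoy receptor of interleukin 1 (r = 0.938), Cldn1 (0.911), Slc25a20 (0.904), Il1bos (0.895) and Gm16894 (0.890). Nearest to Ifitm2 were Dstyk (0.928), Ifitm3 (0.926), App (0.911), Ralb (0.902) and Thbs1 (0.894). Nearest to Ifitm3 were Tgfbi (0.977), Emilin2 (0.933), the interferon-inducible gene Ifi204 (0.931), Gm41409 (0.930) and Ifitm2 (0.926). Nearest to Ifitm6 were Gm28192 (0.952), Gm27211 (0.930), Il27 (0.927), Gm16282 (0.927) and Trem1, a receptor of myeloid cells (0.927). Ifitm2 and Ifitm3 were thus each among the 5 genes most like the other, and the part of the sequence that their transcripts share was not tested. Ifitm1 and Ifitm6 had an r of 0.701 to each other, and both had r values between 0.562 and 0.623 to Ifitm2 and Ifitm3.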

How the data were processed

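Cells of calvarial defects were profiled in 2 samples, a GA and a control library, each with 1 matrix. The deposited values are UMI counts per gene and cell, made by the authors with Cell Ranger on mm10. The file headers give Cell Ranger 7.0.1 and the paper 7.1.0. The members and gene lists were chosen with earlier results of these data known.

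Cells with 500 to 140000 UMIs, 200 to 9500 genes and at most 15% mitochondrial UMIs were kept. Scrublet as run in scanpy 1.11.5 marked 3 GA (0.0322%) and 45 control barcodes (0.516%) by its own threshold, so the highest scores, 0.8% of barcodes per 1000 barcodes, were removed in both libraries (656 and 541 cells within the limits). Pearson residuals (theta 100) of 2000 variable genes, with 0 Ifitm genes among them, gave 50 principal components, which were corrected for library with Harmony's algorithm, written in NumPy 2.4.6, and clustered with 15 neighbours by leidenalg 0.10.2 at resolution 1. A cluster took the class with the highest mean log2 marker fold, or the second within 0.5, if at least 3 of its markers were in 10% of cells and 2-fold higher than elsewhere and no class had more markers among the top 10 genes. These limits, and the 1.25-fold marker limit for neutrophil stages, were chosen with the clusters in view. A cluster led by megakaryocyte genes, which scored as stem and progenitor, and a cluster led by Mmp3, Clec3b and C4b, which scored as mesenchymal, were left unnamed.

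UMIs were summed per class and library. Exact Poisson intervals were used for CPM, exact conditional binomial intervals for log2 ratios and Clopper-Pearson intervals for shares (95%, SciPy 1.17.1). They cover counting error only. Kept cells held 160570724 UMIs in GA and 183662443 in control. The scripts were tested on simulated data.

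Genes named besides the members are the other Ifitm genes, the 5 most alike genes of each member (at least 200 UMIs), the 3 highest and the 3 lowest interferon targets in neutrophil-like cells, the nearest genes beside the cluster, and S100a8 and S100a9. Camp, Ltf, Cxcr2, Il1b, Ifnar2, Ifngr1, Cd81 and the names of leading genes were added after their values were seen. Neither library was compared at another dose. The labels give 1.2 mg/kg of GA, and the paper's methods another dose.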

Additional observations from a re-analysis of the deposited data

Results flagged for a closer look

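In 3 members the difference between GA and control had opposite signs in 2 classes, at least 1.5-fold in each under the settings reported, with 1 library per group. The difference between the classes was not tested in any of them. For Ifitm1 the log2 ratio was 2.62 in neutrophil-like cells and -1.28 in dendritic-like cells, but the first of these is the value for which the family was chosen, so that side was fixed by the choice. For Ifitm3 it was 0.95 in macrophage-like and -0.92 in monocyte-like cells. For Ifitm6 it was 2.86 in mesenchymal-like cells, at 18.5 and 2.55 CPM with neutrophil transcripts present, and -0.72 in monocyte-like cells. In the mesenchymal-like cells 6 of 532 GA cells held 47.9% of the Ifitm6 UMIs, and 13 of 1219 control cells held 43.9%. With background subtracted at the level of B-like cells the mesenchymal-like value was 4.12. That level does not match the S100a8 and S100a9 of mesenchymal-like cells in either library, so nothing is read from it. The monocyte-like values fell short of 1.5-fold under some alternative settings, reaching -0.44 for Ifitm3 and -0.20 for Ifitm6, and in the Adgre4-led cluster they were -0.34 and -0.07.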

How the results depend on the processing

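No paired analysis was possible because each group has 1 library. Of 1156 values recomputed under alternative settings, 863 were classed as unchanged and 290 as moved, and 3, for ratios of at least 2-fold, had the other sign. Levels and ratios were classed by whether they lay within the interval of the value reported. Counts of members or pairs have no interval and were classed by a set fold. In neutrophil-like cells the log2 ratio was above 0 for each of the 4 members under all 17 alternatives, and 1 member was at least 2-fold higher in each. Less the median of all genes the ratios were 2.75 (Ifitm1), 0.86 (Ifitm2), 0.79 (Ifitm3) and 0.75 (Ifitm6), as means over cells 2.46, 0.63, 0.59 and 0.71, and after thinning to 2000 UMIs 2.44, 0.63, 0.56 and 0.72. Without the 1% of cells with the most UMIs of the gene they were 2.80 for Ifitm1, 0.77 for Ifitm2 and 0.70 for Ifitm3. With stages weighted alike they were 2.69 for Ifitm1, 0.62 for Ifitm3 and 0.52 for Ifitm6, and with score ranges weighted alike 2.70 for Ifitm1 and 0.77 for Ifitm2. At Leiden resolution 2, 4 pairs of a member and a stage were at least 2-fold higher, against 7. The pairs lost were Ifitm2 in mature and Ifitm6 in chemokine neutrophils (0.44), and Ifitm1 in the interferon-signature stage, which was not found. The Ifitm1 ratio in dendritic-like cells ran from -1.43 to -0.91.

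Among ratios of at least 2-fold, Ifitm6 in granulocyte progenitor-like cells was -0.36 with at most 10% mitochondrial UMIs and -0.35 with another clustering seed, and Ifitm2 in T- or NK-like cells (15 and 59 UMIs, -2.07) was 0.41 with doublets kept. The cause was not tested. Smaller ratios changed sign too, such as Ifitm2 in osteoblast-like cells (-0.13 to 0.57), Ifitm3 in granulocyte progenitor-like cells (-0.70 to 0.47), Ifitm6 in dendritic-like cells (-0.50 to 0.19) and Ifitm1 in dividing precursors (-1.47 to 2.31). The interferon-signature stage gave a value under 11 alternatives, with Ifitm1 from 1.40 to 2.03 and Ifitm3 from 0.19 to 0.95. Giving classes the same weight, leaving out barcodes found in both libraries and counting the Mmp3-led cluster as mesenchymal (Ifitm1 -0.01) were added after the data had been seen.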
